A study of Mus musculus with 12 samples.

Results

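Voltage-gated and potassium channel genes were described across luminal and myoepithelial cells of the mouse mammary gland, with and without Wnt4. Members were all genes whose symbol begins with Scn, a number and a or b (voltage-gated sodium channels), with Cacna, Cacnb or Cacng (voltage-gated calcium channels) or with Kcn and a letter (potassium channels and their partners). This rule used names alone. It gave 127 of 19938 measured genes, of which 11 were sodium, 24 calcium and 89 potassium channel genes, and 3 were non-coding RNAs named after potassium channel genes. Every gene stood for the probeset with the highest mean, and 7 members had more than 1 probeset.

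All mice were females of 10 to 14 weeks carrying MMTV::Cre and the mT/mG reporter. The MMTV promoter drives Cre in the mammary epithelium, so that recombined cells turn from red to green fluorescence. WT mice were MMTV::Cre+.Wnt4wt/wt.mT/mG, and Wnt4-deleted mice were MMTV::Cre+.Wnt4fl/fl.mT/mG. Green cells were sorted by the surface protein CD24. Per the labels, CD24 high cells are luminal and CD24 low cells myoepithelial. There were 3 arrays in each of 4 groups. Numbers in the titles name the arrays here: WT CD24 low arrays were 1, 9 and 13, and WT CD24 high arrays were 2, 10 and 14. Wnt4-deleted CD24 low arrays were 3, 11 and 15, and Wnt4-deleted CD24 high arrays were 4, 12 and 16. Runs 1 to 4, 9 to 12 and 13 to 16 each held 1 array of every group, but no label ties a run to an experiment. The labels differ on whether the tissue was a gland or a graft, and p-values measure only the spread between these arrays.

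Ion channels are membrane pores that let sodium, calcium or potassium ions down their gradients. A pore-forming alpha subunit usually works with auxiliary subunits that set its surface level and gating. Voltage-gated calcium channels admit the calcium that starts contraction in smooth muscle, and myoepithelial cells share much of the smooth muscle program, contracting to eject milk. In secretory epithelia, potassium channels hold the membrane voltage that drives chloride and fluid transport.

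In the check of the fractions, all 13 measured luminal markers were higher in CD24 high cells in both genotypes, and all 14 myoepithelial markers were lower. Wnt4 itself was 7.65 ± 0.25 (log2, SD, n = 3) in WT and 6.45 ± 0.34 in Wnt4-deleted CD24 high cells. That difference of -1.20 ± 0.19 (SE) did not pass the test (limma, adjusted p = 0.416), where 0 of 19938 genes were called lower. The arrays behind it did not overlap, at 7.42, 7.92 and 7.62 in WT against 6.11, 6.46 and 6.78 in Wnt4-deleted cells. In CD24 low cells the level was 6.53 ± 0.10 and 6.38 ± 0.24. Whether the probes lie in the deleted part of Wnt4 was not tested. Skeletal muscle genes stood apart on CD24 low arrays 1 and 3, and endothelial, pericyte, fibroblast and immune genes were present to varying degrees on CD24 low arrays; their values are given beside the results they touch.

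Most channel genes were near the floor of these arrays. A gene was called dim in a group when its mean lay below the 40th percentile of all genes there, a limit of 5.46 in both CD24 low groups, 5.39 in WT CD24 high cells and 5.35 in Wnt4-deleted CD24 high cells. By this measure 81 of the 127 members were dim in all 4 groups, 13 in 2 groups, 2 in 1 group and 31 in none. The dim members included 7 of 8 sodium channel alpha subunits and all 3 sodium beta subunits. Of the potassium genes, 22 of 35 voltage-gated (Kv), 11 of 15 inward rectifier (Kir) and 14 of 17 auxiliary genes were dim throughout. Of the K2P genes, whose pores keep the resting potential open to potassium, 5 of 14 were dim in all groups. No detection call came with the values, so a dim level is not shown to be absence.

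Channel genes that told the fractions apart numbered 17 in both genotypes. In WT, 18 of 127 members passed the test (14.2%, beside 16.1% of all genes), 5 higher and 13 lower in CD24 high cells. In Wnt4-deleted cells 21 passed (16.5%, beside 16.4% of all genes), 6 higher and 15 lower. Of the 81 members dim in all groups, 1 passed in WT, beside 1.58% of all genes dim in all groups. In Wnt4-deleted cells 3 of them passed, beside 2.29%. With these dim members counted, the channel genes differed between fractions about as often as any genes. The 17 that passed in both genotypes were 13.4% of the members, beside 12.4% of all genes. They were 94.4% of the WT calls and 81.0% of the Wnt4-deleted calls, and 13 of them changed at least 2-fold in both genotypes. Calls of at least 2-fold numbered 14 members in WT (beside 8.84% of all genes) and 13 in Wnt4-deleted cells (beside 9.19%). The median log2 change over all members was -0.04 in WT and -0.06 in Wnt4-deleted cells, beside 0.02 and 0.01 for all genes. All 12 that were lower in CD24 high cells in both genotypes, and all 5 that were higher, separated the groups without overlap. Groups did not overlap for 32 members in WT (25.2%, beside 32.8% of all genes) and for 37 in Wnt4-deleted cells (29.1%, beside 29.3%).

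Direction differed by family in count. All 7 calcium channel genes that passed in each genotype, of 24 measured, were lower in CD24 high cells. Potassium channel genes went both ways, with 5 higher and 5 lower of 89 in WT and 6 higher and 5 lower in Wnt4-deleted cells. Of 11 sodium channel genes, 1 was lower in WT and 3 were lower in Wnt4-deleted cells, and none was higher. None of the 3 non-coding RNAs passed. Across all genes the calls were split evenly, 7.93% higher and 8.21% lower in WT, and 8.23% higher and 8.22% lower in Wnt4-deleted cells.

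**Figure D1:**
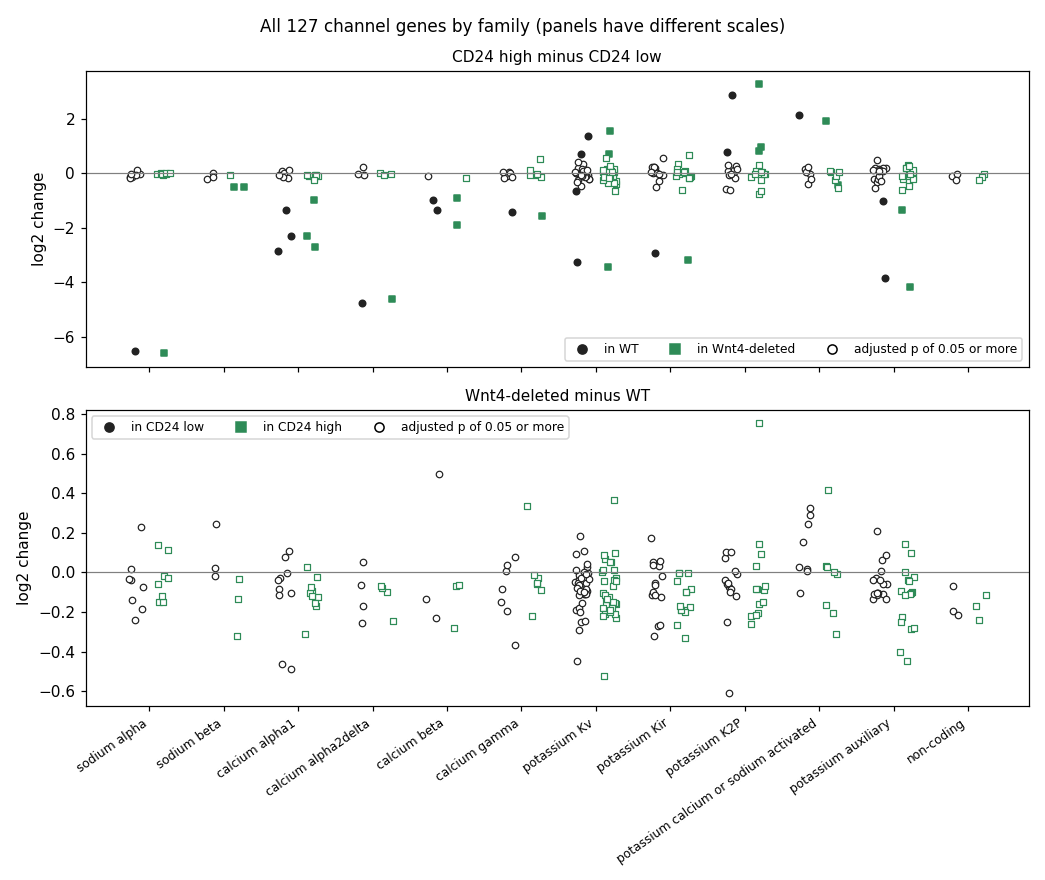
Log2 change of each of the 127 channel genes by family (points, spread sideways for legibility). The upper panel shows CD24 high minus CD24 low cells and the lower panel Wnt4-deleted minus WT cells, on different scales. Filled points passed an adjusted p of 0.05. Filled points stand in most families above, with Scn7a lowest at -6.52 in WT, and none stand below.

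Start-site sequences are shown for 4 of the genes that move most, 3 lower in CD24 high cells (Scn7a, Cacna2d1 and Kcnmb1) and 1 higher (Kcnk5). Each is the 250 bases upstream of the RefSeq start on GRCm38.p6, printed 5′ to 3′ on the gene's strand with CG dinucleotides in capitals. Scn7a is at chr2:66784911-66785160 on the minus strand, Cacna2d1 at chr5:15934441-15934690 on the plus strand, Kcnmb1 at chr11:33962763-33963012 on the plus strand and Kcnk5 at chr14:20181783-20182032 on the minus strand.
Scn7a: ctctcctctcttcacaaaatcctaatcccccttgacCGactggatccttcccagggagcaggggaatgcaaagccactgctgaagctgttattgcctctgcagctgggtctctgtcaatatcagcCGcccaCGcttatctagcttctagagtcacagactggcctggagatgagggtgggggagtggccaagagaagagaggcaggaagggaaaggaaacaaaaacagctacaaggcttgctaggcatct
Cacna2d1: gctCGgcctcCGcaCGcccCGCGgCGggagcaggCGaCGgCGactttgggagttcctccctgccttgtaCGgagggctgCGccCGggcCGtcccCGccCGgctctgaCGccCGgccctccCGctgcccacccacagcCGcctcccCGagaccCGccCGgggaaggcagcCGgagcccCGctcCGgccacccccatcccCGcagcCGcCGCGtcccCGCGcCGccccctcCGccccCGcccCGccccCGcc
Kcnmb1: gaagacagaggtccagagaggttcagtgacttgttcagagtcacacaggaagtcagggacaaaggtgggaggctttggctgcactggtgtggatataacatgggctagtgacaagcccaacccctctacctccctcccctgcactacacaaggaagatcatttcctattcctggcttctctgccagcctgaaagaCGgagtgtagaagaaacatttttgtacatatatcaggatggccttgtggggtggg
Kcnk5: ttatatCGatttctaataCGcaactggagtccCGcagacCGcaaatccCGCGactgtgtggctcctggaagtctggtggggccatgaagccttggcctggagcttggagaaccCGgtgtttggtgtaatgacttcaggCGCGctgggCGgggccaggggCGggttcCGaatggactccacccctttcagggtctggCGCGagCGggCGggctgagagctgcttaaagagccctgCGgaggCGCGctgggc
The number of CG dinucleotides was 3 for Scn7a, 36 for Cacna2d1, 1 for Kcnmb1 and 19 for Kcnk5, against a median of 6 over 32851 such windows of all genes and 8 over the 132 windows of 97 members. Genes that were lower in CD24 high cells thus had both CG-poor and CG-rich starts.

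Scn7a had the widest difference between fractions among the channel genes. It encodes Nax, a sodium channel relative known for sensing the sodium concentration outside the cell. WT CD24 low arrays 1, 9 and 13 gave log2 values of 10.85, 11.25 and 10.82, and Wnt4-deleted CD24 low arrays 3, 11 and 15 gave 10.92, 11.34 and 11.36. WT CD24 high arrays 2, 10 and 14 gave 4.84, 4.57 and 3.94, and Wnt4-deleted CD24 high arrays 4, 12 and 16 gave 4.99, 4.92 and 3.86. All 6 CD24 low arrays were thus high and all 6 CD24 high arrays dim. The log2 change was -6.52 ± 0.31 (SE; limma, adjusted p = 3.05e-07) in WT and -6.62 ± 0.31 (adjusted p = 2.87e-07) in Wnt4-deleted cells, a 92.1-fold and 98.1-fold difference in array value. A fold against a dim level is a difference of array values and need not equal the ratio of transcripts. In the 6 pairs of arrays from 1 run and genotype the change ran from -7.50 to -5.92.

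No other sodium channel gene had a comparable level. The other 10, among them the brain channels Scn1a, Scn2a, Scn3a and Scn8a and the sensory nerve channels Scn9a, Scn10a and Scn11a, lay between 3.11 and 5.56 on every array and were dim in all groups by their means. Of these 10, the beta subunits Scn2b and Scn4b passed, in Wnt4-deleted cells, at -0.52 ± 0.14 (adjusted p = 0.0285) and -0.53 ± 0.16 (adjusted p = 0.048). In WT their changes were -0.21 and -0.15 (adjusted p = 0.407 and 0.665), and the differences between genotypes did not pass either (unadjusted p = 0.157 and 0.127, adjusted p = 1.0). The adjusted p of Scn2b was 0.0633 to 0.103 without array 4, 11, 12, 15 or 16, and 0.0696 with only the compared groups. Scn4b passed in 7 of 20 alternatives. Without a Wnt4-deleted array (3, 4, 11 or 16) its adjusted p was 0.102 to 0.165. Without a WT array (1, 9, 10, 13 or 14), which enters only through the shared spread, the change stayed at -0.53 and the adjusted p was 0.0542 to 0.0682. The adjusted p of Scn4b was also 0.077 with median centring, 0.0529 after a second quantile normalization, 0.144 with only the compared groups and 0.26 without arrays 1 to 4, where the change was -0.32.

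Of 10 genes for pore-forming subunits of calcium channels, 3 were lower in CD24 high cells in both genotypes. Over all genes 12.4% were called in both, in either direction. Cacna1c, the L-type channel Cav1.2 that admits calcium into smooth and heart muscle, was 7.40, 7.65 and 7.20 on WT and 7.22, 7.72 and 6.99 on Wnt4-deleted CD24 low arrays. It was 5.18, 5.22 and 4.94 on WT and 4.86, 5.24 and 4.94 on Wnt4-deleted CD24 high arrays. The groups of the 2 fractions did not overlap, and the change was -2.30 ± 0.19 in both genotypes (adjusted p = 1.4e-05 and 1.43e-05).

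Cacna1g, the T-type channel Cav3.1 that opens at low voltage, was 7.69, 8.35 and 8.46 on WT and 7.77, 7.85 and 7.51 on Wnt4-deleted CD24 low arrays. Its CD24 high values were 5.46, 5.41 and 5.01 in WT and 4.84, 4.81 and 5.31 in Wnt4-deleted cells. High minus low ran from -3.45 to -2.20 in the 6 pairs of 1 run and genotype, with changes of -2.88 ± 0.22 (adjusted p = 7.03e-06) and -2.72 ± 0.22 (adjusted p = 1.09e-05). Cacna1d, the L-type channel Cav1.3, was 6.23, 6.57 and 6.16 against 4.85, 5.09 and 4.99 in WT, and 5.95, 6.05 and 5.49 against 4.98, 4.97 and 4.63 in Wnt4-deleted cells. Its changes were -1.34 ± 0.17 (adjusted p = 3.19e-04) and -0.97 ± 0.17 (adjusted p = 0.00269). The other 7 alpha1 genes did not pass in either genotype, among them the skeletal muscle channel Cacna1s and the T-type channel Cacna1h.

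Of the genes for auxiliary calcium channel subunits, 1 of 4 alpha2delta, 2 of 3 beta and 1 of 7 gamma genes were lower in CD24 high cells in both genotypes. Over all genes 12.4% were called in both, in either direction, so the gamma count is near that share. Cacna2d1 encodes alpha2delta-1, which carries calcium channels to the surface and binds the drug gabapentin. On CD24 low arrays it was 8.88, 9.09 and 8.49 in WT and 8.93, 8.34 and 8.43 in Wnt4-deleted cells. On CD24 high arrays it was 3.96, 4.04 and 4.10 in WT and 4.05, 3.74 and 4.03 in Wnt4-deleted cells, dim throughout. This gave changes of -4.78 ± 0.19 (adjusted p = 1.15e-07) and -4.63 ± 0.19 (adjusted p = 1.64e-07), and a separate probeset gave -5.04 and -4.87. The other 3 alpha2delta genes were dim in all groups and did not pass.

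Cytoplasmic beta subunits also bring the pore to the membrane. Cacnb4 was 6.04, 6.37 and 6.05 on WT CD24 low arrays against 5.02, 4.55 and 4.83 on WT CD24 high arrays, and 6.07, 6.96 and 6.92 against 4.73, 4.88 and 4.61 in Wnt4-deleted cells. The changes were -1.35 ± 0.23 (adjusted p = 0.00182) and -1.91 ± 0.23 (adjusted p = 1.64e-04). Cacnb1, the beta subunit best known from skeletal muscle, was above the dim limit in all groups and changed by -0.97 ± 0.22 (adjusted p = 0.0119) and -0.91 ± 0.22 (adjusted p = 0.0172). Its adjusted p rose above 0.05 when array 9, 10 or 13 was left out in WT (0.0537 to 0.0546) and when array 4 or 15 was left out in Wnt4-deleted cells (0.0623 and 0.0634). Cacnb1 was 6.77 and 6.78 on CD24 low arrays 1 and 3, which carried the skeletal muscle genes, and 7.08 to 7.46 on the other 4. Cacng7, a gamma subunit also known to associate with glutamate receptors, was 6.55 to 7.27 on the CD24 low and 5.22 to 5.57 on the CD24 high arrays, with changes of -1.42 ± 0.21 (adjusted p = 7.62e-04) and -1.56 ± 0.21 (adjusted p = 4.03e-04). The remaining 6 gamma genes did not pass.

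**Figure D2:**
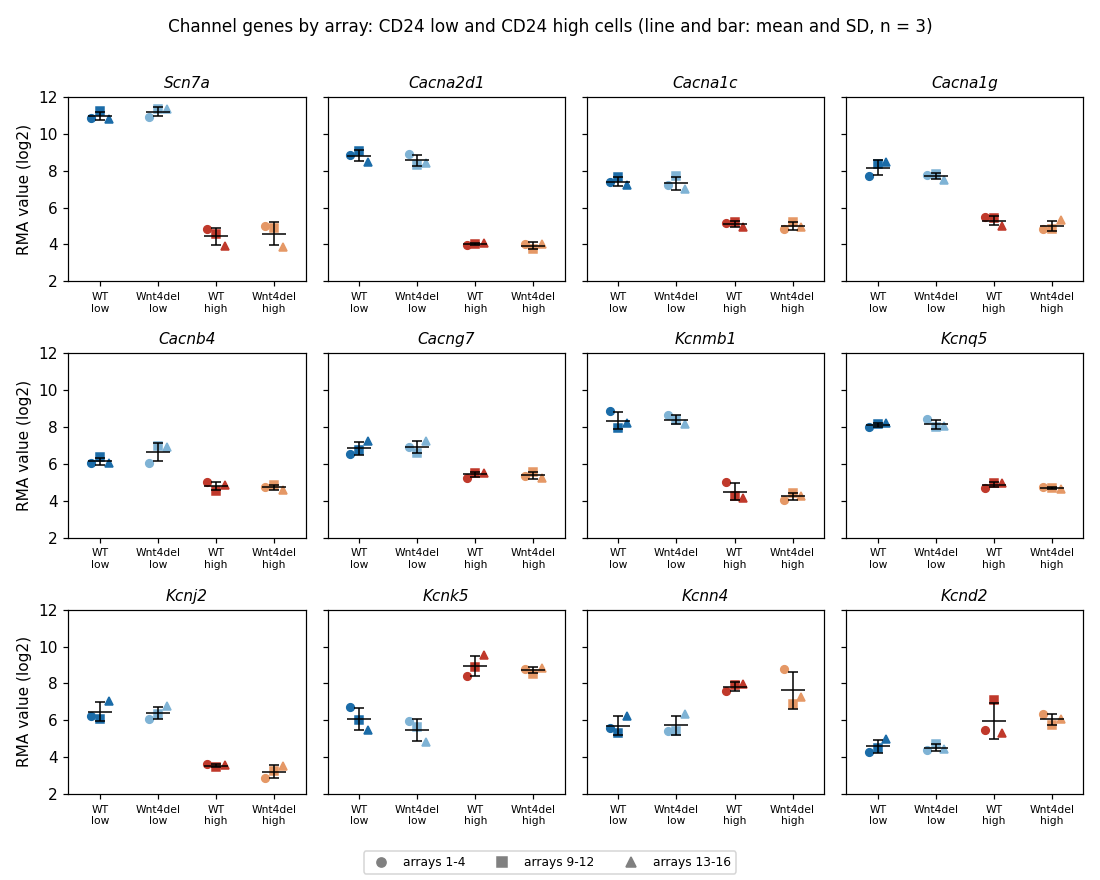
RMA value (log2) of 12 channel genes that passed in both genotypes, on each array. Symbols give the run of title numbers, and line and bar give mean and SD (n = 3) in each of 4 groups. CD24 low arrays lie above CD24 high arrays for the 9 genes up to Kcnj2 and below them for Kcnk5, Kcnn4 and Kcnd2.

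Potassium channel genes of CD24 low cells came from different classes. Kcnmb1 encodes the beta1 subunit that makes the large-conductance BK channel of smooth muscle more sensitive to calcium. It was 8.87, 7.96 and 8.22 in WT and 8.68, 8.37 and 8.18 in Wnt4-deleted CD24 low cells, against 5.02, 4.28 and 4.16 and 4.06, 4.41 and 4.24 in the CD24 high cells. The changes were -3.86 ± 0.27 (adjusted p = 3.3e-06) and -4.17 ± 0.27 (adjusted p = 1.87e-06), with no overlap. Kcnma1, the pore of the same BK channel, did not follow: it was 6.55, 6.03 and 5.79 against 6.55, 5.14 and 5.43 in WT, and 7.26, 5.97 and 5.87 against 5.82, 5.86 and 6.69 in Wnt4-deleted cells. The arrays of both fractions overlapped, at -0.42 ± 0.44 (adjusted p = 0.651) and -0.24 ± 0.44 (adjusted p = 0.8), and a dimmer probeset of the gene gave 0.28 and 0.25, the opposite sign.

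Kcnq5, the voltage-gated channel Kv7.5 that opens slowly and steadies the resting potential of neurons and smooth muscle, was 8.01, 8.19 and 8.21 in WT and 8.43, 7.98 and 8.04 in Wnt4-deleted CD24 low cells. On the CD24 high arrays it was 4.71, 4.96 and 4.95 in WT and 4.75, 4.67 and 4.65 in Wnt4-deleted cells. Changes were -3.26 ± 0.14 (adjusted p = 1.62e-07) and -3.46 ± 0.14 (adjusted p = 1.54e-07). Kcnj2, the inward rectifier Kir2.1 that sets the resting potential of muscle, was 6.25, 6.09 and 7.04 and 6.07, 6.36 and 6.76 in the CD24 low groups, against 3.60, 3.45 and 3.56 and 2.84, 3.26 and 3.52 in the CD24 high groups. Its changes were -2.92 ± 0.26 (adjusted p = 2.2e-05) and -3.19 ± 0.26 (adjusted p = 1.16e-05), the only Kir gene of 15 that passed.

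Kcnip3, a calcium-binding partner of Kv4 channels also known as DREAM, was 7.66, 6.99 and 6.94 and 7.73, 6.74 and 6.96 in the CD24 low groups, highest on arrays 1 and 3. In the CD24 high groups it was 6.33, 5.88 and 6.31 and 5.62, 5.72 and 5.98. Its changes were -1.03 ± 0.27 (adjusted p = 0.0224) and -1.37 ± 0.27 (adjusted p = 0.00463). Without array 1 or array 10 the WT adjusted p was 0.0849 and 0.0906. Kcna6, the channel Kv1.6, was dim in all groups and passed in WT alone, at -0.65 ± 0.14 (adjusted p = 0.00778). In Wnt4-deleted cells the change was -0.35 (adjusted p = 0.121), and the difference between genotypes did not pass (unadjusted p = 0.153).

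Among the 127 members, all that were higher in CD24 high cells were potassium channel genes. Kcnk5, the K2P channel TASK-2 of epithelia that responds to pH and cell swelling, was 8.42, 8.89 and 9.53 in WT and 8.80, 8.54 and 8.84 in Wnt4-deleted CD24 high cells. It was 6.70, 6.02 and 5.49 and 5.95, 5.65 and 4.80 in the CD24 low groups. CD24 high arrays were higher in each run, by 1.71 to 4.05, and the changes were 2.87 ± 0.37 (adjusted p = 2.99e-04) and 3.26 ± 0.37 (adjusted p = 1.18e-04). Kcnn4, the intermediate-conductance calcium-activated channel of secretory epithelia and lymphocytes, was 7.57, 7.93 and 7.99 and 8.76, 6.88 and 7.23 in the CD24 high groups. It was 5.60, 5.28 and 6.25 and 5.42, 5.41 and 6.32 in the CD24 low groups. No groups overlapped, at 2.12 ± 0.44 (adjusted p = 0.00685) and 1.91 ± 0.44 (adjusted p = 0.0123), but without arrays 1 to 4 the Wnt4-deleted change was 1.19 (adjusted p = 0.0705).

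Kcnd2, the fast-inactivating channel Kv4.2, was dim in CD24 low cells at 4.27 to 4.97. In the CD24 high groups it was 5.45, 7.08 and 5.32 and 6.32, 5.74 and 6.09, so that array 10 stood above the other arrays. The changes were 1.37 ± 0.39 (adjusted p = 0.0344) and 1.53 ± 0.39 (adjusted p = 0.0201). Leaving out array 1, 9 or 16 raised the WT adjusted p to 0.112, 0.0977 and 0.0506, and leaving out array 4, 15 or 16 raised that of Wnt4-deleted cells to 0.0697, 0.0555 and 0.0656. Without array 10 the WT change of Kcnd2 was 0.81 and still passed. Without arrays 1 to 4 the adjusted p was 0.0917 in WT and 0.121 in Wnt4-deleted cells, with array weights 0.0519 in Wnt4-deleted cells and with only the compared groups 0.0945 in WT.

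Kcnk1, the K2P channel TWIK-1, was 9.22 to 9.24 on the WT and 9.29 to 9.37 on the Wnt4-deleted CD24 high arrays, against 8.10 to 8.89 on the CD24 low arrays. Its changes were 0.79 ± 0.19 (adjusted p = 0.0161) and 0.81 ± 0.19 (adjusted p = 0.0139). Without array 9, 10, 13 or 14 the WT adjusted p was 0.0502 to 0.0699, and without array 11 that of Wnt4-deleted cells was 0.0554. Kcnh2, the voltage-gated channel Kv11.1 that ends the heart's action potential, was 5.96 to 6.50 in CD24 high and 5.34 to 5.69 in CD24 low cells, with changes of 0.70 ± 0.15 (adjusted p = 0.00941) and 0.71 ± 0.15 (adjusted p = 0.00826). In Wnt4-deleted cells its adjusted p was 0.0572 without arrays 1 to 4.

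Kcnk16, the K2P channel TALK-1, passed in Wnt4-deleted cells alone. Its Wnt4-deleted arrays were 6.96, 6.70 and 6.04 in CD24 high against 5.66, 5.59 and 5.63 in CD24 low cells, a change of 0.94 ± 0.23 (adjusted p = 0.0162). WT arrays overlapped, at 5.85, 5.53 and 6.06 against 5.78, 5.56 and 5.22 (0.29, adjusted p = 0.499). The difference between genotypes did not pass (unadjusted p = 0.0718), and the call was lost without array 4 or 12 (adjusted p = 0.0604 and 0.0576). With array weights the change of Kcnk16 was 0.63 (adjusted p = 0.155), and without arrays 1 to 4 it was 0.76 (adjusted p = 0.0937). Kcnt1, a sodium-activated channel that was dim in all groups, was lower in CD24 high cells by -0.45 ± 0.12 (adjusted p = 0.0298) in Wnt4-deleted cells and changed by 0.02 in WT (adjusted p = 0.948). Without array 4, 11 or 16 the adjusted p of Kcnt1 in Wnt4-deleted cells was 0.101 to 0.11. It was also 0.0507 with median centring, 0.124 with only the compared groups and 0.0996 without arrays 1 to 4.

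**Figure D3:**
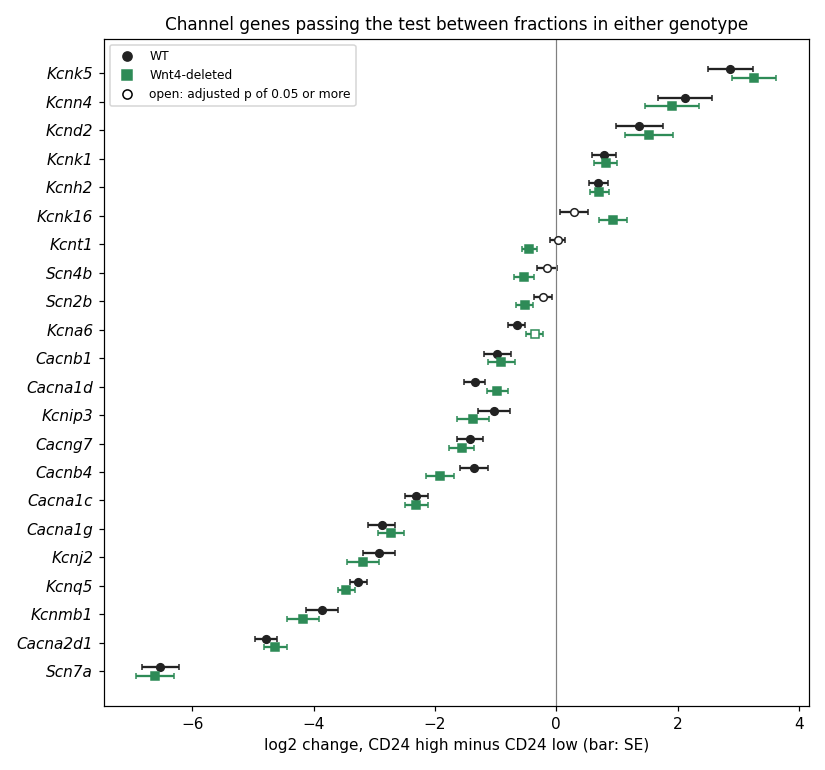
Log2 change with its standard error, CD24 high minus CD24 low, for the 22 channel genes that passed in either genotype (circles WT, squares Wnt4-deleted, open where the adjusted p was 0.05 or more). The order runs from Kcnk5 at 2.87 in WT to Scn7a at -6.52, and 17 genes are filled in both genotypes.

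Genes of other cell types moved with the fraction to differing degrees. Over all genes, 8.21% were called lower in CD24 high cells in WT and 8.22% in Wnt4-deleted cells. The shares called higher were 7.93% and 8.23%. Over 10 endothelial markers, the mean level was 6.71, 8.18 and 9.04 on WT and 6.59, 9.34 and 9.08 on Wnt4-deleted CD24 low arrays, against 5.26 to 6.55 on CD24 high arrays; 4 of 10 were lower in CD24 high cells in WT and 6 of 10 in Wnt4-deleted cells. Pericyte markers (8 genes) averaged 6.10 to 7.82 against 5.50 to 6.05, with 1 and 2 called lower. Fibroblast markers (10 genes) averaged 5.85 to 8.78 against 5.29 to 5.82, with 0 and 1 called lower, and immune markers (9 genes) 5.28 to 6.66 against 4.54 to 4.89, with 3 and 2 called lower. In bulk RNA, fewer cells of a type and less RNA per cell cannot be told apart. Among the CD24 low arrays, the endothelial, pericyte, fibroblast, immune and adipocyte means were all lowest on arrays 1 and 3. Of the 12 members lower in CD24 high cells in both genotypes, 7 averaged lower on these arrays than on the other 4 CD24 low arrays, with log2 differences of -0.56 for Cacnb1, -0.52 for Cacnb4, -0.40 for Kcnj2, -0.31 for Cacna1g, -0.31 for Scn7a, -0.22 for Cacng7 and -0.08 for Cacna1c. The other 5 differed by 0.02 for Cacna1d, 0.12 for Kcnq5, 0.32 for Cacna2d1, 0.59 for Kcnmb1 and 0.79 for Kcnip3. On both arrays Cacnb1 lay below the range of the other 4, and Kcnmb1 and Kcnip3 above it. Schwann cell markers (8 genes), of interest since Scn7a is known from glia, averaged 5.54 to 5.73 on CD24 low and 5.66 to 5.89 on CD24 high arrays, with 2 called higher in CD24 high cells in WT and 1 in Wnt4-deleted cells. Neuron markers (8 genes) averaged 4.27 to 4.76 against 4.12 to 4.30, with 0 and 2 called lower. Adipocyte markers (7 genes) averaged 5.61 to 6.46 against 5.40 to 5.91, and none passed limma's test in either genotype, where 1 and 4 had an unadjusted p under 0.05.

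Some channel genes did differ between CD24 low arrays 1 and 3 and the other 4. The mean of 14 skeletal muscle genes was 6.74 on array 1 and 7.54 on array 3, against 5.17 to 5.50 on the other CD24 low arrays and 5.07 to 5.33 on CD24 high arrays. Epithelial lists also differed somewhat. The myoepithelial mean was 11.18 and 11.16 on arrays 1 and 3, against 10.78 to 11.13 on the other CD24 low arrays. The luminal mean was 8.03 and 8.11, against 7.625 to 8.07 on the other CD24 low arrays. Arrays 1 and 3 lay above the others by 0.99 for Kcnma1, 0.84 for Kcnk5, 0.80 for Kcnj13 and 0.79 for Kcnip3. The difference was 0.69 for Cacng4, 0.59 for Kcnmb1, 0.49 for Kcnk1 and 0.38 for Cacna1s, the pore of the skeletal muscle calcium channel. Of these genes, Kcnk5 and Kcnk1 were higher in CD24 high cells. Arrays 1 and 3 lay below the others by a difference of -0.79 for Kcne4, -0.72 for Kcnk6, -0.67 for Kcna5 and -0.60 for Kcnj8. The arrays overlapped for Kcnk5 and Kcne4. Kcnj8, the pore of the ATP-sensitive channel known from pericytes, was 5.25, 5.97 and 5.53 and 5.17, 5.96 and 5.80 in CD24 low cells, against 4.67 to 5.23 in CD24 high cells. It missed the threshold at -0.52 ± 0.24 (adjusted p = 0.186) in WT and -0.63 ± 0.24 (adjusted p = 0.103) in Wnt4-deleted cells. With a block for runs of title numbers both passed at the same changes (adjusted p = 0.0398 and 0.0178), as did the Wnt4-deleted change without array 3 (-0.86, adjusted p = 0.0212). Without arrays 1 to 4 both passed, at -0.67 (adjusted p = 0.0356) and -0.69 (adjusted p = 0.0322). In that fit 20 and 22 members passed in all, beside 17% and 18% of all genes. The part of other cells in these values was not tested.

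**Figure D4:**
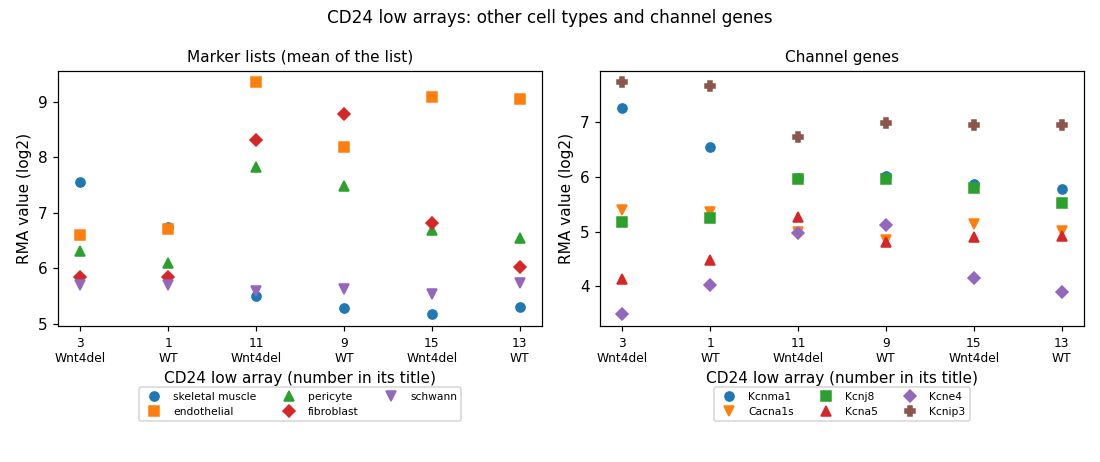
The 6 CD24 low arrays in order of their runs: left, mean RMA value (log2) of marker lists of other cell types; right, RMA value of 6 channel genes. Arrays 1 and 3 are highest for skeletal muscle genes (6.74 and 7.54), Kcnma1, Kcnip3 and Cacna1s, and lowest for endothelial genes.

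Channels were also read by tissue lists. Of 14 smooth muscle contraction channels 12 were measured, and 4 were lower in CD24 high cells in each genotype (Cacna2d1, Kcnmb1, Cacna1g and Cacna1c), beside 8.21% and 8.22% of all genes, with none higher and medians of -0.45 and -0.43. The 8 that did not pass included Kcna5 (-0.48 and -0.64, adjusted p = 0.313 and 0.149), Cacnb2 (-0.12 and -0.17), Kcnn2 (-0.04 and 0.09), Kcnn3 (0.14 and -0.12), Kcnk3 (-0.02 and -0.03) and Cacna1h (-0.19 and -0.08). In Wnt4-deleted cells Kcna5 passed without array 3 (-0.96, adjusted p = 0.0149), without arrays 1 to 4 (-0.90, adjusted p = 0.0439) and with array weights (-0.87, adjusted p = 0.0334). Of 12 epithelial secretion channels 3 were higher in each genotype (Kcnk5, Kcnn4 and Kcnk1), beside 7.93% and 8.23% of all genes, with none lower and medians of 0.21 and 0.01.

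Kcnq1, which with its partner Kcne3 carries potassium across secretory epithelia, missed the threshold at 0.42 ± 0.18 (adjusted p = 0.145) and 0.25 ± 0.18 (adjusted p = 0.414). Kcne3 was 0.18 ± 0.47 and -0.21 ± 0.47 (adjusted p = 0.879 and 0.845). None of 14 measured neuronal channels passed in either genotype, beside 16.1% of all genes in WT and 16.4% in Wnt4-deleted cells. The mean of this list was 4.22 to 4.47 on the arrays, below the dim limits. Of all genes dim in all groups, 1.58% and 2.29% were called. Limma's unadjusted p was under 0.05 for 1 neuronal channel in WT and 0 in Wnt4-deleted cells, with medians of -0.05 in each. Of 6 measured skeletal muscle channels Cacnb1 was lower in both genotypes and Scn4b in Wnt4-deleted cells, while Cacna1s (-0.08 and -0.26), Cacng1 (0.04 and -0.06), Kcna7 (-0.24 and -0.14) and Kcnj12 (0.05 and 0.01) did not pass. Scn4a, Cacng6, Cacnb3 and Kcnq1ot1 were not analysed here.

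Other ion transport genes, from lists outside the channel families, differed in both directions, and over all genes 16.1% were called in WT and 16.4% in Wnt4-deleted cells. Of 15 sodium, potassium and chloride transport genes, 7 were higher and 4 lower in WT CD24 high cells, and 7 and 2 in Wnt4-deleted cells. Higher genes were the epithelial sodium channel subunits Scnn1a (3.28 ± 0.41 and 3.05 ± 0.41, adjusted p = 2.5e-04 and 4.03e-04) and Scnn1b (2.84 and 2.81), the sodium-potassium-chloride cotransporter Slc12a2 (1.92 and 2.45) and the chloride-proton exchanger Clcn3 (2.36 and 2.40). The sodium pump's beta subunits went opposite ways, with Atp1b1 at 1.97 and 1.68 and Atp1b2 at -1.51 and -1.69.

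Of 18 calcium release, entry and pump genes, 2 were higher and 3 lower in WT, and 4 and 1 in Wnt4-deleted cells, so that 27.8% were called in each, beside the same 16.1% and 16.4%. The sodium-calcium exchanger Slc8a1 was lower in both (-1.40 and -1.74) and the release channel Itpr2 higher in both (1.13 and 0.88). Of 13 partners of KATP channels, pacemaker channels, TRP channels and Piezo channels, 4 were higher and 3 lower in WT, and 3 and 4 in Wnt4-deleted cells, 53.8% in each beside these shares. Among cation channels, Trpv4 (-2.89 and -2.92) and Trpv6 (-2.33 and -2.09) were lower in CD24 high cells, while the mechanosensitive channel Piezo2 (2.74 and 2.91) and Trpc6 (2.06 and 2.02) were higher. Abcc8, the sulfonylurea receptor of KATP channels, was higher (1.27 and 1.71), while its pore partner Kcnj11 did not pass.

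Deletion of Wnt4 changed no channel gene past the threshold. In CD24 low cells 0 of 127 members passed (beside 0.00502% of all genes, 1 gene), and limma's unadjusted p was under 0.05 for 2 members (beside 3.06% of all genes). These were Cacna1d, lower in Wnt4-deleted cells by -0.49 ± 0.17 (unadjusted p = 0.0169), and Kcna10, a dim Kv gene, by -0.45 ± 0.16 (unadjusted p = 0.0173), both with an adjusted p of 1.0. Cacna1d arrays did not overlap, at 6.23, 6.57 and 6.16 in WT against 5.95, 6.05 and 5.49. Next in order of p came Kcng3 (-0.29) and Cacna1g (-0.46) below 0, and Cacnb4 (0.50), Scn4b (0.24), Kcnt2 (0.32) and Kcnn3 (0.29) above 0. The arrays of 5 members did not overlap (3.94%, beside 6.77% of all genes), 1 higher and 4 lower. The change was above 0 for 38 of 127 members (beside 45.4% of all genes), and for 24 of the 81 dim members beside 47.6% of dim genes.

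In CD24 high cells also 0 members passed (beside 0.00502% of all genes), and 5 had an unadjusted p under 0.05 (beside 1.99% of all genes), all with an adjusted p of 1.0. Kcnd1, the Kv4.1 channel, was 5.31, 4.73 and 4.88 in WT and 4.36, 4.47 and 4.51 in Wnt4-deleted cells, a change of -0.52 ± 0.15 (unadjusted p = 0.00577) with no overlap. Kcnk16 was 0.75 ± 0.23 higher (unadjusted p = 0.00733), but its arrays 14 (6.06, WT) and 16 (6.04, Wnt4-deleted) crossed. The others were Kcnt1 (-0.31, unadjusted p = 0.0279), Scn2b (-0.32, unadjusted p = 0.0453) and Kcnh4 (-0.23, unadjusted p = 0.0481). Above 0 followed Cacng4 (0.34), Scn3a (0.11) and Kcne2 (0.15).

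Small shifts in CD24 high cells lay mostly below 0. The change was above 0 for 24 of 127 members (beside 43.4% of all genes), with a median of -0.10 beside -0.03 for all genes. Groups did not overlap for 17 members (13.4%, beside 7% of all genes), 1 higher and 16 lower in Wnt4-deleted cells, and 12 of the 17 were dim in all groups. Dim genes in general leaned the same way: of 7078 genes dim in all groups, 30.8% were above 0 and 8.41% did not overlap, against 12 of 81 dim members above 0. The difference between the genotype effects of the fractions passed for 0 members (beside 0% of all genes), with an unadjusted p under 0.05 for 1 (Kcnt1, unadjusted p = 0.0212, adjusted p = 1.0), beside 1.37% of all genes.

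For the 17 genes that told the fractions apart, the genotype change ran from -0.61 to 0.50 in CD24 low and from -0.40 to 0.14 in CD24 high cells. Their 95% intervals, not adjusted for the number of genes, reached 0.30 to 0.97 to either side, with bounds from -1.42 to 0.997 in CD24 low and from -1.18 to 0.96 in CD24 high cells. The steps between fractions of Scn7a, Cacna2d1, Kcnmb1, Kcnq5, Kcnj2, Cacna1g, Cacna1c, Kcnk5 and Kcnn4 were larger in size than these bounds in both genotypes. For Cacng7 the WT step of -1.42 was about as large as the widest bound.

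A set of 5 short motifs was looked up, on both strands, in the 250 bases upstream of RefSeq starts, among them the windows printed for Scn7a, Cacna2d1, Kcnmb1 and Kcnk5. The CArG box, bound by serum response factor, was in 0 of 132 member windows and in 1.47% of all windows. TGTTTAC, a forkhead motif, was in 0 member windows and 3.17% of all. TATAAA was in 5 (3.79%, beside 12.4%), ATCAAAG, a TCF motif, in 3 (2.27%, beside 3.21%) and CAGGTG, an E-box, in 28 (21.2%, beside 17.2%). The windows of the 4 printed genes held none of the 5 motifs. Of the 17 genes that told the fractions apart 16 had a window, and of these Cacna1d held TATAAA and Kcnk1 held CAGGTG. These are matches of letters in 1 window per start, and nothing about binding follows from them.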

How the data were processed

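RNA of 12 sorted cell samples was measured on Affymetrix gene arrays, 3 per group. Per the labels, Trizol RNA was amplified with Ovation Pico WTA System V2, biotin-labelled and hybridised. The authors deposited log2 values made by RMA in Affymetrix Expression Console 1.1.2800, that is, background-corrected, quantile-normalised and summarised by median polish, which compresses differences at low levels. The values ran from 1.62 to 13.8, with array medians of 5.64 to 5.82. Arrays have no read depth, so their number limits the precision.

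Of 35556 probesets 21789 had 1 symbol in the platform annotation, 1621 had several (3 of them touching members) and 12146 had no entry; the first gave 19938 genes, with the highest-mean probeset for 999 genes with several. Tests used limma 3.58.1 in R 4.3.3 with 1 mean per group over 12 arrays (8 residual degrees of freedom, 11.05 after moderation), two-sided, adjusted by Benjamini-Hochberg over all genes within each comparison at a threshold of 0.05. Errors given with changes are standard errors. The model was tested on simulated data. Promoter windows came from RefSeq (GRCm38.p6).

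Genes were named by role, by the 10 highest and 10 lowest changes that passed without overlap, by the 4 smallest p per direction for genotype, and by the muscle lists; other called members and list genes were chosen after their values were seen. Members and lists were chosen with earlier results of these data known. Alternatives were a filter on low values, the mean of probesets, median centring, a second quantile normalization, a variance trend on intensity (robust), weights per array, only the compared groups, a block for runs of title numbers, stricter thresholds, leaving out arrays 1 to 4 and leaving out each array.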

Additional observations from a re-analysis of the deposited data

How the results depend on the processing

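The groups have no replicate number in common, so a block for runs of title numbers was fitted. It gave 19 members called between fractions in WT and 24 in Wnt4-deleted cells, beside 18.2% and 18.8% of all genes. Among the members recomputed under it by name, the call of Kcnj8 changed. Deviations of arrays of 1 run correlated at 0.696, 0.517 and 0.372 between the CD24 low groups and at 0.451, 0.53 and 0.181 between the Wnt4-deleted fractions, but over all pairs of groups at -0.143 to 0.696. Across all alternatives run, WT counts ranged from 14 to 23 against 18, the 23 with array weights, where 26.2% of all genes were called (20.8% in Wnt4-deleted cells). In Wnt4-deleted cells 21 fell to 13 at an adjusted p of 0.01 and to 13 at 2-fold or more. Leaving out 1 array gave 15 to 20 in WT and 15 to 28 in Wnt4-deleted cells. The share of all genes called then ran from 11.4% to 17.7% in WT and from 10.8% to 18.2% in Wnt4-deleted cells. Genotype comparisons and their difference gave 0 members throughout. At most 2 of all genes were called in any of these fits (0.01%, without array 3 in CD24 low cells). Counts of 0 members therefore say little about the channel genes. The difference could not be fitted with only the compared groups. Scn7a, Cacna2d1, Kcnmb1, Kcnq5, Kcnj2, Cacna1g, Cacna1c, Cacna1d, Cacnb4, Cacng7 and Kcnk5 passed between fractions in both genotypes under every alternative fit at the 0.05 threshold, except that Kcnj2 was not tested under the filter on low values, which left it out. With only the compared groups, adjusted p was 0.0945 for Kcnd2 in WT, and in Wnt4-deleted cells 0.0648 for Kcnn4, 0.0533 for Kcnh2 and 0.0525 for Kcnk16. The causes were not tested.

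Signs turned only for changes that had not passed, and the turned values were not all near 0, with 0.354 for Kcnma1 the farthest. In WT, without arrays 1 to 4, they were 0.0803 for Cacna1s, -0.104 for Cacng1 and 0.154 for Kcnn2; with array weights -0.0456 for Cacng1 and 0.048 for Kcnn2; with median centring 0.0174 for Kcnn2 and 0.0388 for Kcnk3; and 0.0437 for Kcnk3 after a second quantile normalization. In Wnt4-deleted cells, without arrays 1 to 4, they were 0.354 for Kcnma1, 0.0 for Cacng1, -0.123 for Kcnj12 and -0.0564 for Kcnn2. With array weights they were 0.16 for Kcnma1, 0.268 for Kcne3 and -0.0786 for Kcnj12, and with median centring 0.0147 for Cacng1 and 0.0447 for Kcnk3. After a second quantile normalization they were 0.043 for Cacng1, 0.001 for Cacna1h and 0.0227 for Kcnk3, and with the mean of probesets 0.0031 for Kcnma1.

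Leaving out 1 array gave ranges across 0 in WT of -0.26 to 0.487 for Kcne3, -0.188 to 0.0682 for Cacna1s, -0.0914 to 0.156 for Cacng1, -0.137 to 0.0833 for Kcnn2, -0.0346 to 0.282 for Kcnn3, -0.0636 to 0.0291 for Kcnk3 and -0.0102 to 0.0413 for Kcnt1. In Wnt4-deleted cells the ranges were -0.525 to 0.203 for Kcnma1, -0.584 to 0.155 for Kcne3, -0.147 to 0.0456 for Cacng1, -0.0832 to 0.0937 for Kcnj12, -0.308 to 0.215 for Cacna1h, -0.326 to 0.0249 for Cacnb2, -0.0074 to 0.194 for Kcnn2, -0.319 to 0.0709 for Kcnn3 and -0.205 to 0.275 for Kcnk3.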

Other observations

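Kcne3, an auxiliary subunit that keeps Kcnq1 channels open in epithelia, followed the run of title numbers rather than any group. Arrays 13 to 16 gave 5.13, 5.59, 5.19 and 5.02, and the other 8 arrays gave 3.70 to 4.37. In the same way 43 of 19938 genes (0.216%) were apart on arrays 13 to 16.

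Kcna4, a Kv gene that was dim in all groups, was apart on arrays 1 to 4 at 3.61, 3.50, 3.41 and 3.37, against 3.05 to 3.34 on the other 8, as were 207 genes (1.04%). No member was apart on arrays 9 to 12, beside 46 genes (0.231%).

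Kcnh1, the voltage-gated channel Kv10.1, varied among replicates more than between groups. WT CD24 high arrays gave 8.44, 7.57 and 5.86 and Wnt4-deleted CD24 high arrays 8.35, 7.59 and 7.03, while CD24 low arrays lay between 6.67 and 7.58.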
